A study of Mus musculus with 12 samples.

Results

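Gene expression after 24 h of riociguat was compared with gene expression after 6 h of riociguat in cultured mouse liver cells, using 3 libraries of each exposure, which are 6 of the 12 libraries of the series. The libraries were taken by their labels, and every gene that passed a filter on low counts was tested. The cells are named HSCs in the labels without further explanation. They are taken here to be hepatic stellate cells and came from wild-type mice. They were cultured for 12 h after isolation, given new medium, and collected 24 h after that change. In the riociguat 24 h group the compound was added 0 h after the medium change, in the riociguat 6 h group 18 h after it. The remaining libraries, 3 with riociguat for 12 h and 3 with the solvent DMSO for 12 h, both added 12 h after the medium change, entered the estimate of the spread and are given as context. Neither the 24 h nor the 6 h exposure has a DMSO group of its own length, so the length of exposure and the state of the culture when the compound arrived cannot be told apart. The labels do not state the dose of riociguat. The labels do not state that replicates are separate animals or isolations, so a p-value covers the spread between these libraries, which may be technical.

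Stellate cells are the retinoid-storing pericytes of the liver sinusoid. In injured liver and on culture plastic they lose their retinoid droplets, acquire contractile fibres, divide and secrete fibrillar collagen. Riociguat stimulates soluble guanylate cyclase, the receptor for nitric oxide, which makes cyclic GMP. Cyclic GMP activates a protein kinase, encoded by Prkg1 in smooth muscle and pericytes, that relaxes contractile cells, and it is removed by phosphodiesterases.

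RNA from whole cells was sequenced and the deposited table holds estimated counts per gene. The totals were 22013214, 16644098 and 20053489 counts in the riociguat 24 h libraries, against 12953096, 21534616 and 27358893 counts in the riociguat 6 h libraries, and mitochondrial transcripts took 3.13% to 3.84% of them after 24 h and 3.21% to 3.89% after 6 h. Levels are given as CPM, that is counts relative to library totals rescaled with TMM factors, as mean ± SD with n = 3. CPM is not corrected for gene length, so levels are compared between groups and not between genes. Differences are log2 fold changes, riociguat 24 h over riociguat 6 h, with their standard errors. They come from the quasi-likelihood test of edgeR, run over 16036 genes, and a gene is said to have risen or fallen where its Benjamini-Hochberg adjusted p is under 0.05. Among the stellate markers, Reln lay between 1607 and 1703 CPM after 24 h and between 1531 and 1567 CPM after 6 h. Lhx2 lay between 30.3 and 32.6 CPM after 24 h and between 25.5 and 31.5 CPM after 6 h. Other stellate markers differed more or were low. Hand2 lay between 46.4 and 51.1 CPM after 24 h and between 27.4 and 36.3 CPM after 6 h. Lrat was higher and Des lower after 24 h, as given below. Ngfr and Colec11 reached at most 7.77 and 4.69 CPM after 24 h and 5.35 and 4.19 CPM after 6 h. Genes of other liver cells were also detected. The hepatocyte gene Alb lay between 389 and 539 CPM after 24 h and between 687 and 786 CPM after 6 h, and the endothelial gene Pecam1 between 152 and 175 CPM after 24 h and between 230 and 252 CPM after 6 h.

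After 24 h, 1148 genes were higher and 1303 were lower than after 6 h. These are 7.16% and 8.13% of the genes tested, 15.3% in all, and they are the shares against which every list below is read. The changes were mostly small. The median absolute log2 fold change of the changed genes was 0.38, and 237 genes, 1.48%, changed by at least 1, with 133 of these (0.829%) risen and 104 (0.649%) fallen. The groups did not overlap in 2396 of the 2451 changed genes and in 29.8% of all genes tested. The median over all genes was -0.01. The 50 gene lists described below hold 1006 entries, of which 964 were tested and 42 fell below the filter on low counts, and counts are given over the tested members.

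**Figure D1:**
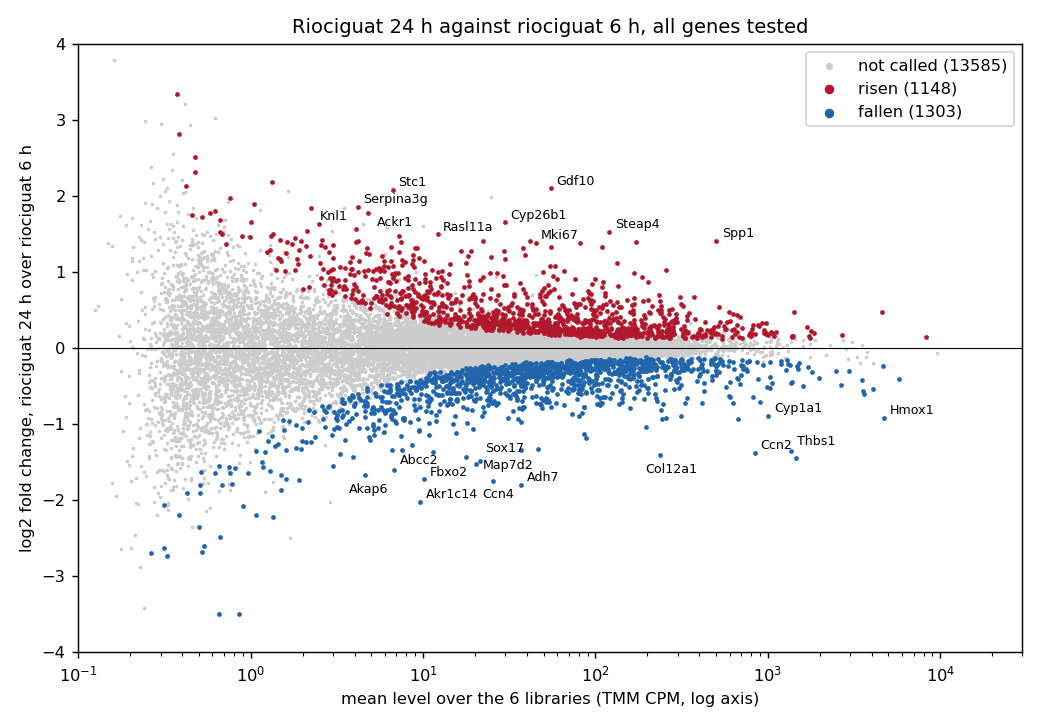
Each point is 1 gene, with its mean level over the 6 libraries in TMM CPM on a log axis and its log2 fold change of riociguat 24 h over riociguat 6 h on the vertical axis. Red points are the 1148 risen and blue points the 1303 fallen genes. 22 genes lie outside the plotted range. Gdf10 and Stc1 are the named genes highest in the plot and Akr1c14 and Adh7 the lowest.

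The largest rises were sought among called genes with groups that did not overlap and a group mean reaching 5 CPM. Clone and predicted-gene names were left out. The first was Gdf10, which encodes a secreted member of the TGF-beta superfamily (ENSMUSG00000021943, chromosome 14, 33923587 to 33937983, GRCm38). Its level was 90.4, 89.0 and 88.3 CPM in the riociguat 24 h libraries, against 20.2, 23.0 and 19.1 CPM in the riociguat 6 h libraries, a log2 fold change of 2.10 ± 0.09 (edgeR quasi-likelihood test, adjusted p = 2.09e-10). The groups are far apart, with little spread inside either. Stc1, which encodes the secreted glycoprotein stanniocalcin, had 12.2, 10.7 and 9.64 CPM after 24 h, against 1.73, 2.14 and 3.52 CPM after 6 h (2.08 ± 0.22, adjusted p = 4.25e-06). Cyp26b1, which degrades retinoic acid, had 40.1, 53.6 and 43.0 CPM after 24 h, against 12.7, 17.7 and 12.7 CPM after 6 h (1.65 ± 0.14, adjusted p = 3.58e-07). That each of these 24 h libraries exceeded each 6 h library was a condition of the choice. Steap4, a metalloreductase gene, averaged 179 ± 18.97 CPM after 24 h and 61.9 ± 2.89 CPM after 6 h (SD, n = 3 each), a log2 fold change of 1.53 ± 0.10. Spp1, which encodes osteopontin, had 727, 747 and 721 CPM after 24 h, against 262, 298 and 266 CPM after 6 h (1.41 ± 0.06, adjusted p = 1.03e-10). The rest of the 12 largest rises were Serpina3g, a protease inhibitor gene (1.85 ± 0.29), Ackr1, a decoy receptor for chemokines (1.78 ± 0.23), the small GTPase gene Rasl11a (1.497 ± 0.15), the interferon-inducible GTPase gene Iigp1 (1.41 ± 0.17), and the cell division genes Knl1 (1.56 ± 0.36), Tk1 (1.47 ± 0.15) and Ndc80 (1.41 ± 0.25).

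By the same limits, the largest fall was that of Akr1c14, which encodes an aldo-keto reductase (ENSMUSG00000033715, chromosome 13, 4049011 to 4090688). Its level was 3.90, 3.26 and 4.20 CPM after 24 h, against 16.8, 14.9 and 14.9 CPM after 6 h, a log2 fold change of -2.02 ± 0.13 (edgeR quasi-likelihood test, adjusted p = 1.54e-08). Adh7, an alcohol dehydrogenase that oxidises retinol, had 16.1, 21.0 and 12.8 CPM after 24 h, against 57.6, 59.1 and 56.1 CPM after 6 h (-1.80 ± 0.13). Ccn4, a matricellular protein gene, had 11.6, 10.3 and 12.9 CPM after 24 h, against 41.3, 34.7 and 41.7 CPM after 6 h (-1.75 ± 0.11). That the highest 24 h library lay under the lowest 6 h library was again a condition of the choice. Col12a1, which encodes a collagen that decorates fibrils, had 129, 130 and 129 CPM after 24 h, against 342, 342 and 340 CPM after 6 h (-1.40 ± 0.05, adjusted p = 1.48e-11). Others among the 12 largest falls were the ubiquitin ligase adaptor gene Fbxo2 (-1.73 ± 0.14), the anchoring protein gene Akap6 (-1.67 ± 0.21), the conjugate export pump gene Abcc2 (-1.60 ± 0.24), the microtubule-binding protein gene Map7d2 (-1.52 ± 0.10), the endothelial transcription factor gene Sox17 (-1.48 ± 0.12), the inositol phosphatase gene Inpp5d (-1.44 ± 0.12) and the integrin gene Itgb7 (-1.44 ± 0.30). Endothelial markers fell as well, as given below, and their part in the fall of Sox17 was not tested.

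**Figure D2:**
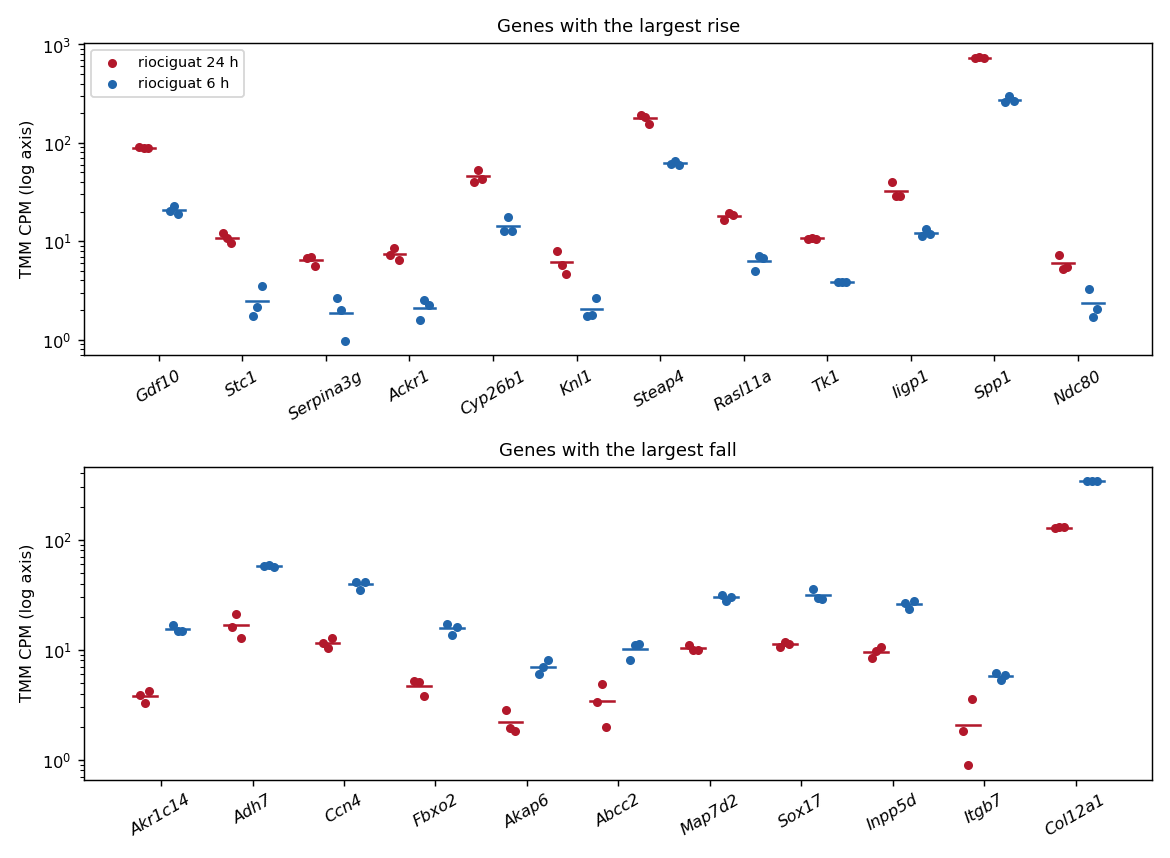
Points are the levels of single libraries in TMM CPM on a log axis, with riociguat 24 h in red and riociguat 6 h in blue, and lines are group means. The upper panel holds the 12 genes with the largest rise and the lower panel 11 of the 12 with the largest fall. The colours do not overlap in any gene because the choice required it.

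The levels after 12 h of riociguat lay between the 24 h and the 6 h means for 12 of the 12 largest rises and for 12 of the 12 largest falls. They did so for 1034 of the 1148 risen genes (90.1%) and for 1054 of the 1303 fallen genes (80.9%). The DMSO 12 h mean lay between the means of the exposures for 790 of the risen and 839 of the fallen genes, above both for 156 risen and 326 fallen genes, and under both for 201 risen and 138 fallen genes. A gene chosen for a difference between the exposures will often have other groups between them, so these counts describe the groups and were not tested.

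Genes of cell division were higher after 24 h than after 6 h. All 25 G2/M phase genes tested, whose products build the spindle and carry out mitosis, rose, with a median log2 fold change of 1.01. Mki67, the usual marker of cycling cells (ENSMUSG00000031004, chromosome 7, 135689784 to 135716361), had 69.6, 67.2 and 59.2 CPM after 24 h, against 21.8, 27.7 and 25.1 CPM after 6 h, a log2 fold change of 1.38 ± 0.09 (edgeR quasi-likelihood test, adjusted p = 9.23e-09). Top2a, the topoisomerase that untangles replicated chromosomes (ENSMUSG00000020914, chromosome 11, 98992943 to 99024189), had 60.4, 54.1 and 49.95 CPM after 24 h, against 24.3, 26.4 and 20.2 CPM after 6 h (1.22 ± 0.09, adjusted p = 9.69e-08). In both genes the lowest 24 h library lay far above the highest 6 h library. The cyclin gene Ccna2 rose by 1.11 ± 0.10 and Anln, an organiser of the contractile ring, by 0.97 ± 0.09. Of 29 S phase genes 26 rose, with a median of 0.49. Mcm5, a subunit of the replicative helicase, had 63.7, 58.0 and 55.2 CPM after 24 h, against 38.5, 35.4 and 34.7 CPM after 6 h (0.71 ± 0.07, adjusted p = 1.25e-06). Tk1, thymidine kinase, had 10.6, 10.8 and 10.6 CPM after 24 h, against 3.85, 3.81 and 3.89 CPM after 6 h. The ribonucleotide reductase gene Rrm2 rose by 0.83 ± 0.09, and Uhrf1, which copies DNA methylation, by 0.67 ± 0.07. The counts of risen G2/M and S phase genes were 22 and 24 without riociguat 24 h replicate 1, and no lower without any other library.

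The DMSO and 12 h groups stood differently in the G2/M and S phase lists. Mki67 averaged 45.7 ± 1.90 CPM in DMSO, 24.9 ± 2.97 CPM after 6 h, 43.2 ± 2.66 CPM after 12 h and 65.3 ± 5.45 CPM after 24 h (SD, n = 3 each). The DMSO mean lay between the 24 h and 6 h means for 24 of the 25 G2/M genes. Mcm5 averaged 56.7 ± 3.14 CPM in DMSO, 36.2 ± 1.999 CPM after 6 h, 53.6 ± 1.53 CPM after 12 h and 59.0 ± 4.29 CPM after 24 h. Here the 6 h group is the one apart and the other groups are close to each other. For 8 of the 26 risen S phase genes DMSO lay above both exposures.

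Among 15 genes for D cyclins, their kinases and the inhibitors of these, 2 rose and 1 fell. Ccnd1, which encodes the cyclin that growth factors induce to start the cycle, had 161, 170 and 185 CPM after 24 h, against 99.3, 99.3 and 93.8 CPM after 6 h (0.82 ± 0.06, adjusted p = 6.4e-08). The inhibitor gene Cdkn2d rose by 0.75 ± 0.24 (edgeR adjusted p = 0.0395), a call that was lost without 24 h replicate 2 or 3 or 6 h replicate 1 or 2, where the adjusted p reached 0.164. The inhibitor gene Cdkn1a, which p53 induces, averaged 646 ± 16.2 CPM after 24 h and 762 ± 36.0 CPM after 6 h and fell by 0.24 ± 0.05. Of 22 p53 targets 6 fell. Plk2, a kinase gene, fell by 0.55 ± 0.06 and Plk3 by 0.36 ± 0.10. The count was 2 without 24 h replicate 1 and 3 without 24 h replicate 2 or 6 h replicate 1.

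The promoters of cell cycle genes are known for 2 short elements, the CHR (TTTGAA) of G2/M genes and the E2F site (TTTCCCGC or TTTGGCGC) of S phase genes. RefSeq promoter windows of GRCm38.p6, from 250 bases before to 50 bases after a gene's start, were searched on both strands. The CHR was added to the search after the data were seen. It was found in 16 of the 21 risen G2/M genes with a window, and in 14.8% of the 11621 tested genes with one. An E2F site was found in 7 of 20 risen S phase genes with a window and in 3.21% of all. These are matches of letters and not evidence of binding. The windows of Mki67, Top2a and Mcm5 are shown because these genes are described above and hold a match. Tk1 and Rrm2 are S phase genes that rose more than Mcm5, and their windows held no E2F site. Birc5, a G2/M gene that rose more than Top2a, had no CHR in its window. Capitals mark the CHR or its reverse complement in Mki67 and Top2a, which hold 2 each, and the E2F site on the opposite strand in Mcm5.
Mki67, chr7:135716330-135716629, minus strand: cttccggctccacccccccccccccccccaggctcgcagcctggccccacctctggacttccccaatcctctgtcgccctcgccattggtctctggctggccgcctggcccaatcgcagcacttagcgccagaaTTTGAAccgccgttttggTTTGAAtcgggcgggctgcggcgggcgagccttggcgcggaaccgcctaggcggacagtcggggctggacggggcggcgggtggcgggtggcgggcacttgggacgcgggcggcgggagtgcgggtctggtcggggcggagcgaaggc
Top2a, chr11:99024140-99024439, minus strand: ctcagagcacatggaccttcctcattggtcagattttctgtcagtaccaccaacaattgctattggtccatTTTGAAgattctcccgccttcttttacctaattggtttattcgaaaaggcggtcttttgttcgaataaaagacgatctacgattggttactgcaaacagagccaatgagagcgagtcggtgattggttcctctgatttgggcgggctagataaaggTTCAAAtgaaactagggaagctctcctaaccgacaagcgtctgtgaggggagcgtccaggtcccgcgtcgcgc
Mcm5, chr8:75109259-75109558, plus strand: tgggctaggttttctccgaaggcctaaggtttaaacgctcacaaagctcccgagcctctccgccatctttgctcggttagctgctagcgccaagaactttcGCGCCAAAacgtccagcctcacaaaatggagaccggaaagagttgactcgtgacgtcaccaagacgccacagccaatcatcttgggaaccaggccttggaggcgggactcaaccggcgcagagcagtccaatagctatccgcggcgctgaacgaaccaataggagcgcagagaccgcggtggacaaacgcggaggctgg

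Many contractile and cytoskeletal genes were lower after 24 h than after 6 h. Of 23 contractile and stellate activation genes 11 fell and 2 rose, with a median log2 fold change of -0.25. Acta2, the smooth muscle actin that marks activated stellate cells (ENSMUSG00000035783, chromosome 19, 34241090 to 34255590), had 112, 110 and 125 CPM after 24 h, against 227, 178 and 197 CPM after 6 h, a log2 fold change of -0.79 ± 0.09 (edgeR quasi-likelihood test, adjusted p = 7.33e-06). Tagln, a smooth muscle actin-binding protein gene (ENSMUSG00000032085, chromosome 9, 45929619 to 45936058), had 165, 144 and 192 CPM after 24 h, against 342, 304 and 318 CPM after 6 h (-0.94 ± 0.09, adjusted p = 1.94e-06). No library of one group reached the range of the other. Cnn2, which encodes a calponin, had 187, 169 and 198 CPM after 24 h, against 331, 292 and 302 CPM after 6 h (-0.74 ± 0.06). Tpm4, a tropomyosin gene, fell by 0.45 ± 0.04. The members that rose were Smtn, the smoothelin gene (0.23), and Vim, which encodes the intermediate filament vimentin (0.20). Of 28 genes of the actin cytoskeleton, its regulator SRF and focal adhesions 16 fell and the others did not pass, with a median of -0.21. Actg1, a cytoplasmic actin gene, had 2850, 2832 and 2957 CPM after 24 h, against 4565, 4013 and 4521 CPM after 6 h (-0.60 ± 0.05). The filamin gene Flnc fell by 0.66 ± 0.05 and Vcl, which encodes the adhesion protein vinculin, by 0.57 ± 0.05.

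Targets of YAP and TAZ, coactivators that enter the nucleus when cells are under tension, included more genes that fell than rose. Of 22 tested 11 fell and 3 rose, with a median of -0.25. Ccn2, the connective tissue growth factor gene (ENSMUSG00000019997, chromosome 10, 24595442 to 24598683), had 463, 420 and 518 CPM after 24 h, against 1315, 1066 and 1256 CPM after 6 h, a log2 fold change of -1.38 ± 0.09 (edgeR quasi-likelihood test, adjusted p = 1.54e-08). Its family member Ccn1 had 477, 452 and 485 CPM after 24 h, against 796, 721 and 825 CPM after 6 h (-0.73 ± 0.06, adjusted p = 1.45e-07). Ankrd1, a muscle ankyrin repeat gene, had 467, 426 and 526 CPM after 24 h, against 752, 722 and 742 CPM after 6 h (-0.64 ± 0.07). In each of these the exposures are separated by more than the spread of either. The members that rose were Igfbp3 (0.44), which binds insulin-like growth factors, the RNA-binding protein gene Rbms3 (0.45) and the angiomotin family gene Amotl1 (0.14). Among 7 other CCN and thrombospondin genes directions differed. Thbs1 had 731, 724 and 852 CPM after 24 h, against 2082, 1692 and 2116 CPM after 6 h (-1.35 ± 0.09, adjusted p = 2e-08), and Ccn4 fell as given above. Thbs2 had 79.7, 84.8 and 72.4 CPM after 24 h, against 28.1, 33.4 and 32.1 CPM after 6 h (1.33 ± 0.09, adjusted p = 1.37e-08). Thbs4 rose by 1.04 ± 0.30 at a mean of 4.02 ± 0.77 CPM after 24 h and 1.98 ± 0.33 CPM after 6 h, and its adjusted p reached 0.093 when 24 h replicate 1 or 2 or 6 h replicate 2 or 3 was left out, which left 1 risen gene.

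For several of these genes the 12 h level was close to the 24 h level. Ccn2 averaged 1270 ± 112 CPM in DMSO, 1212 ± 130 CPM after 6 h, 469 ± 48.3 CPM after 12 h and 467 ± 48.7 CPM after 24 h (SD, n = 3 each). The 6 h group is near DMSO, and the 12 h and 24 h groups are near each other. Thbs1 averaged 2127 ± 177 CPM in DMSO, 1963 ± 236 CPM after 6 h, 705 ± 73.4 CPM after 12 h and 769 ± 72.0 CPM after 24 h. Acta2 differs from these in that its 6 h libraries all lay under its DMSO libraries. It averaged 484 ± 57.5 CPM in DMSO, 201 ± 24.3 CPM after 6 h, 126 ± 8.62 CPM after 12 h and 116 ± 8.33 CPM after 24 h. DMSO was above both exposures for 9 of the 11 fallen contractile genes, for 11 of the 16 fallen cytoskeletal genes and for 11 of the 11 fallen YAP and TAZ targets.

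The TEAD factors, through which YAP and TAZ act, are known to bind GGAATG. These letters were found in 7 of the 9 fallen YAP and TAZ targets with a window, in none of the 3 that rose, and in 1743 of the 11621 windows. The CArG box, which SRF binds, was searched only in its strict form, CCWWWWWWGG, where W is A or T. It was found in 2 of the 9 fallen contractile genes with a window and in 1.59% of all. The window of Acta2 held no such match. Boxes that depart from the strict form were not counted, so these counts may miss SRF sites. Windows are shown for 3 of the fallen genes described above, chosen because they hold a match. Those of Ccn1 and Ankrd1 have GGAATG or its reverse complement in capitals, and that of Cnn2 the CArG box. Matches are a description and no measure of binding.
Ccn1, chr3:145649936-145650235, minus strand: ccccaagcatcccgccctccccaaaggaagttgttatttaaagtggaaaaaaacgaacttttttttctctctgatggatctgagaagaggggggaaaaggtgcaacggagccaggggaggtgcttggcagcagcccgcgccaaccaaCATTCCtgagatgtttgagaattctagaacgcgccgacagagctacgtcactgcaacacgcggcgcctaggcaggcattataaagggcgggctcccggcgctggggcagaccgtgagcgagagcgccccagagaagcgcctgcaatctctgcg
Ankrd1, chr19:36119795-36120094, minus strand: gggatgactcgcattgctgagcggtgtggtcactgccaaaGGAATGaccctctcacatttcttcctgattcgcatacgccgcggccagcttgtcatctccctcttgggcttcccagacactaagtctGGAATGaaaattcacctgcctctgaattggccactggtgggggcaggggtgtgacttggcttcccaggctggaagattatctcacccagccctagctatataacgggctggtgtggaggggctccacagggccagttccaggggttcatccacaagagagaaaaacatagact
Cnn2, chr10:79988350-79988649, plus strand: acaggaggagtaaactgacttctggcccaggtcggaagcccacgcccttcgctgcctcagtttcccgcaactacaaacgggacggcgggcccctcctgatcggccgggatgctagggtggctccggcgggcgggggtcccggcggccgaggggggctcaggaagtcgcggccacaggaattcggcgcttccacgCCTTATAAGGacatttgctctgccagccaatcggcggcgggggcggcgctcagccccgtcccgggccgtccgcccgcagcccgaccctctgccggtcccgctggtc

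**Figure D3:**
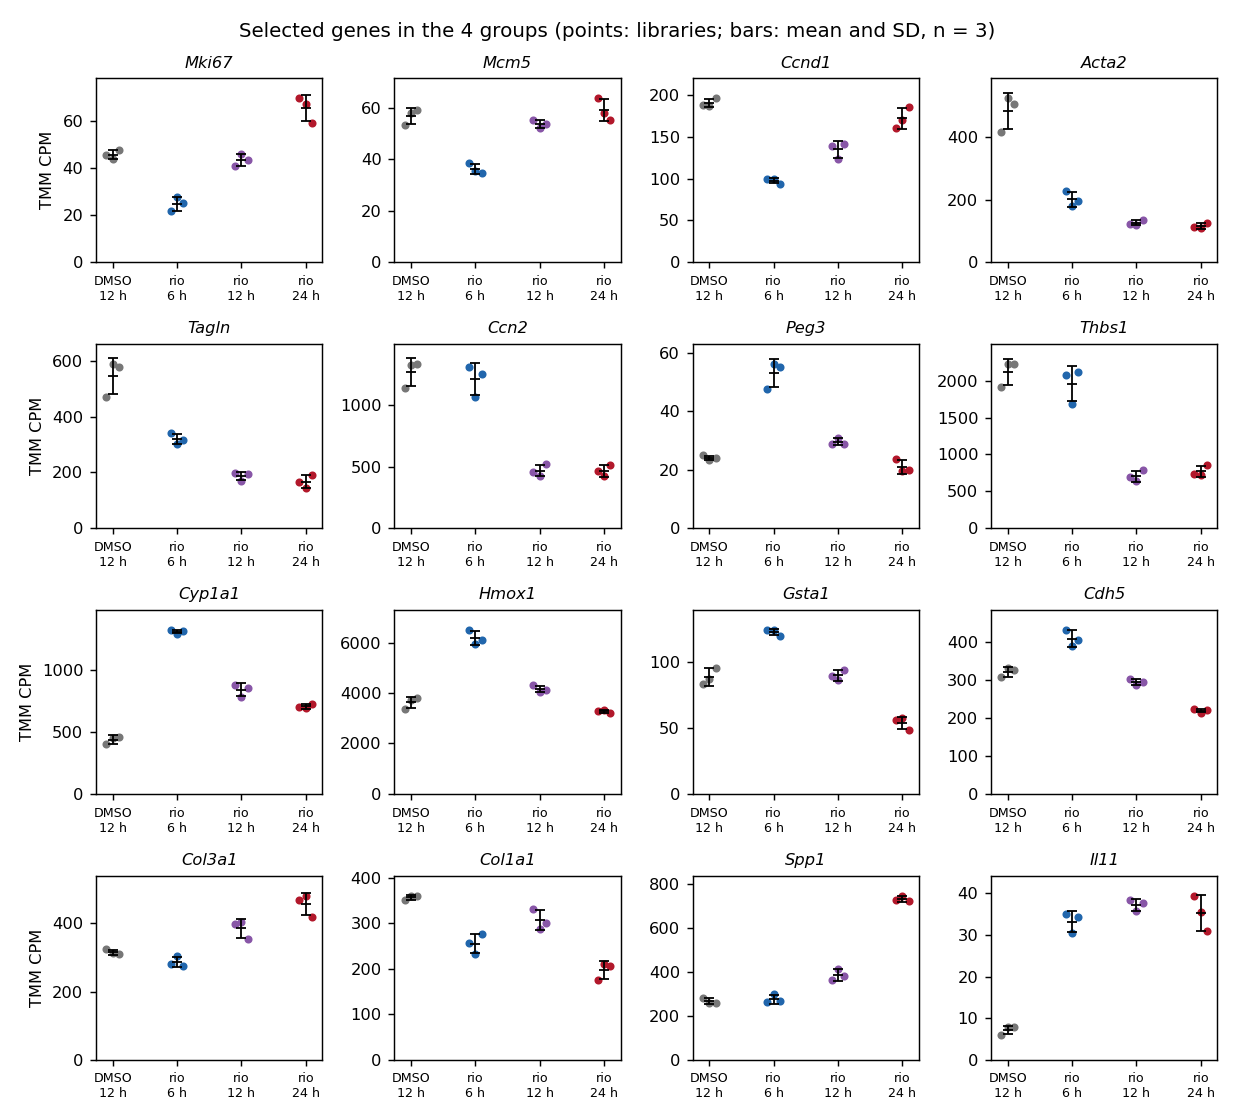
Levels of 16 genes in TMM CPM in DMSO 12 h, riociguat 6 h, riociguat 12 h and riociguat 24 h, with points for libraries and bars for the mean and SD (n = 3). Mki67 climbs over the exposures, Ccn2 and Thbs1 are high in DMSO and at 6 h and low at 12 h and 24 h, Cyp1a1 and Hmox1 are highest at 6 h, and Il11 averages 7.19 CPM in DMSO and 33.2 to 37.2 CPM in the exposures.

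Genes of xenobiotic and oxidative responses were lower after 24 h than after 6 h. The aryl hydrocarbon receptor is a transcription factor that senses planar aromatic compounds and induces enzymes that clear them. Of 13 of its genes 8 fell and 1, the receptor gene Ahr itself, rose (0.21), with a median of -0.66. The call for Ahr was lost without any library except 6 h replicate 3. Cyp1a1, the best known target (ENSMUSG00000032315, chromosome 9, 57687928 to 57703824), had 701, 692 and 729 CPM after 24 h, against 1324, 1294 and 1313 CPM after 6 h, a log2 fold change of -0.89 ± 0.05 (edgeR quasi-likelihood test, adjusted p = 7.37e-09). Cyp1b1, a related monooxygenase gene, fell by 0.72 ± 0.07, and Tiparp, which restrains the receptor, by 0.66 ± 0.07. The count of fallen members was 8 with each library left out in turn. Cyp1a1 averaged 439 ± 33.8 CPM in DMSO, 1310 ± 15.3 CPM after 6 h, 841 ± 50.4 CPM after 12 h and 707 ± 19.2 CPM after 24 h, so the 24 h level was still above that of DMSO. DMSO lay under both exposures for 6 of the 8 fallen members.

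NRF2 is the transcription factor that induces glutathione enzymes and other antioxidant genes. Of 25 such genes 20 fell and the others did not pass, with a median of -0.35. Hmox1, which encodes the heme-degrading heme oxygenase (ENSMUSG00000005413, chromosome 8, 75093621 to 75100589), had 3275, 3322 and 3224 CPM after 24 h, against 6505, 5940 and 6109 CPM after 6 h, a log2 fold change of -0.92 ± 0.05 (edgeR quasi-likelihood test, adjusted p = 1.12e-09). Gsta1, a glutathione transferase gene, had 55.7, 57.3 and 48.4 CPM after 24 h, against 124, 124 and 120 CPM after 6 h (-1.19 ± 0.07, adjusted p = 2.72e-09). No 24 h library of either gene came near the lowest 6 h library. Prdx1, a peroxiredoxin gene, averaged 2869 ± 83.2 CPM after 24 h and 4257 ± 147 CPM after 6 h and fell by 0.57 ± 0.04. The transferase gene Gstm1 fell by 0.71 ± 0.06 and Slc7a11, the cystine importer, by 0.48 ± 0.09. Gsta1 and Gsta2, and the Ugt1a genes of the previous list, are near-identical or share exons, so reads may be divided between them wrongly. Hmox1 averaged 3631 ± 219.5 CPM in DMSO, 6185 ± 290 CPM after 6 h, 4157 ± 135 CPM after 12 h and 3273 ± 49.0 CPM after 24 h. DMSO was under both exposures for 12 of the 20 fallen members and between them for the other 8.

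Among 17 genes of heme and iron handling 5 rose and 5 fell. The iron exporter gene Slc40a1 had 186, 168 and 167 CPM after 24 h, against 273, 267 and 282 CPM after 6 h (-0.66 ± 0.05). The ferritin subunit genes Ftl1 and Fth1 fell by 0.40 and 0.23, and Blvrb, a biliverdin reductase gene, by 0.29, beside Hmox1. The members that rose were Steap4, given above, the importer gene Slc39a14 (0.44 ± 0.04), Hmox2 (0.21), the transporter gene Slc11a2 (0.19) and Aco1 (0.19), whose product binds iron-responsive elements. Hepatocyte markers, listed below, also fell, and many enzymes of these lists are abundant in hepatocytes. The part of those cells in the falls of both lists was not tested. The 12 h means of all 8 fallen aryl hydrocarbon receptor genes and all 20 fallen NRF2 genes lay between the 24 h and 6 h means. So did those of 80.9% of all fallen genes. The 12 h means of the 12 fallen hepatocyte markers lay above both. These positions describe the groups and were not tested.

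The core of the aryl hydrocarbon receptor site, GCGTG, was found in 4 of the 7 fallen targets with a window and in 53.5% of all windows. The antioxidant response element, searched as TGANNNNGC, was found in 12 of the 16 fallen NRF2 list genes with a window and in 47.6% of all. Both are short and common, and the second can overlap other sites that begin with TGA. The windows of Cyp1a1 and Gsta1 are shown with these letters in capitals, as those of the leading genes of each list.
Cyp1a1, chr9:57697363-57697662, plus strand: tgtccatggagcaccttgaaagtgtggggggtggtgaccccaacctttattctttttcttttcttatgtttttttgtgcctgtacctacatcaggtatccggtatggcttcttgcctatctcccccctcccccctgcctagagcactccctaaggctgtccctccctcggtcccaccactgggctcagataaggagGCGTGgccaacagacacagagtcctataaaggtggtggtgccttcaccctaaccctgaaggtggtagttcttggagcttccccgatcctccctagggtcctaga
Gsta1, chr9:78230419-78230718, plus strand: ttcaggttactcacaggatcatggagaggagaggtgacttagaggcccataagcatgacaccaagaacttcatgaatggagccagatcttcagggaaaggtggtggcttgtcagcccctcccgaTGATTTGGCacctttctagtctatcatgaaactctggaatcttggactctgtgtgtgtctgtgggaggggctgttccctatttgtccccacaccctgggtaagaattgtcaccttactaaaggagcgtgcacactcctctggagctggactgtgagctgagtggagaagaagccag

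Matrix genes moved in both directions, with more of them higher after 24 h. Of 23 collagen chain genes 10 rose and 4 fell, with a median of 0.11. Col3a1, a fibrillar collagen (ENSMUSG00000026043, chromosome 1, 45311538 to 45349706), had 468, 481 and 419 CPM after 24 h, against 282, 304 and 276 CPM after 6 h, a log2 fold change of 0.67 ± 0.06 (edgeR quasi-likelihood test, adjusted p = 5.33e-07). Col14a1, which associates with fibrils, had 132, 142 and 142 CPM after 24 h, against 81.9, 85.4 and 71.2 CPM after 6 h (0.81 ± 0.06). The chains of collagen I went opposite ways. Col1a2 had 174, 188 and 214 CPM after 24 h, against 144, 136 and 137 CPM after 6 h (0.46 ± 0.07, adjusted p = 9.88e-05). Col1a1 had 174, 211 and 206 CPM after 24 h, against 258, 233 and 276 CPM after 6 h (-0.37 ± 0.07, adjusted p = 0.00141). Col1a1 averaged 358 ± 5.38 CPM in DMSO, 255 ± 21.5 CPM after 6 h, 307 ± 22.6 CPM after 12 h and 197 ± 19.97 CPM after 24 h. The other fallen chains were Col12a1, given above, and the basement membrane chains Col4a2 (-0.40 ± 0.04) and Col4a1 (-0.31).

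Of 22 genes of collagen processing and crosslinking 9 rose and 2 fell. Adamts14, a procollagen protease gene, rose by 0.58 ± 0.08, Pcolce, which enhances such cleavage, by 0.42 ± 0.06, and the lysyl hydroxylase gene Plod2 by 0.37 ± 0.06. Lox, the lysyl oxidase that crosslinks collagen, averaged 61.2 ± 5.44 CPM after 24 h and 89.0 ± 4.13 CPM after 6 h and fell by 0.54 ± 0.08, and Loxl2 fell by 0.16. The count of fallen genes was 1 without 24 h replicate 1 or 3. Of 30 glycoprotein and proteoglycan genes 10 rose and 3 fell, with a median of 0.21. Lum, the proteoglycan lumican, had 89.4, 74.9 and 73.1 CPM after 24 h, against 40.4, 33.3 and 38.6 CPM after 6 h (1.08 ± 0.10, adjusted p = 1.08e-06). Bgn, biglycan, averaged 1656 ± 24.5 CPM after 24 h and 1197 ± 38.0 CPM after 6 h (0.47 ± 0.04), and the microfibril gene Fbn1 rose by 0.42 ± 0.04. Those that fell were Tnc, tenascin C (-0.35), and the laminin genes Lama4 (-0.22) and Lamc1 (-0.17), of which 1 was left without 24 h replicate 3 or 6 h replicate 1.

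Genes that limit or drive matrix breakdown were mixed. Of 21 metalloproteinases and their inhibitors 5 rose and 3 fell. Timp1, the inhibitor induced in fibrosis (ENSMUSG00000001131, chromosome X, 20870166 to 20874735), had 258, 240 and 289 CPM after 24 h, against 144, 148 and 139 CPM after 6 h, a log2 fold change of 0.87 ± 0.07 (edgeR quasi-likelihood test, adjusted p = 1.2e-07). Timp3, the inhibitor bound to matrix, had 170, 158 and 196 CPM after 24 h, against 318, 283 and 319 CPM after 6 h (-0.81 ± 0.07, adjusted p = 7.32e-07). These inhibitor genes thus differ in direction, each with groups that do not overlap. Adamts9, a protease of versican, had 185, 177 and 184 CPM after 24 h, against 79.8, 84.6 and 85.8 CPM after 6 h (1.12 ± 0.05), and Adamts12 rose by 0.68 ± 0.07. The other called members were Adamts4 (0.65), Mmp10 (0.47), Mmp8 (-1.04) and Mmp11 (-0.58). Of 13 plasminogen system genes 5 rose and 6 fell. The tissue factor gene F3 fell by 0.28 ± 0.05, while Thbd, which encodes the anticoagulant receptor thrombomodulin, rose by 0.34 ± 0.05 and Anxa2, which binds plasminogen, by 0.21 ± 0.04. The risen count was 2 without 24 h replicate 1 or 6 h replicate 3 and 3 without 24 h replicate 2, and the fallen count was 3 without 24 h replicate 2.

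TGF-beta is the main fibrogenic cytokine of the liver, and BMPs are relatives that signal through other receptors. Of 22 TGF-beta ligand, receptor and response genes 7 rose and 5 fell. Ltbp2, a latent TGF-beta binding protein gene, had 88.6, 89.4 and 85.0 CPM after 24 h, against 43.6, 44.6 and 41.6 CPM after 6 h (1.02 ± 0.06, edgeR quasi-likelihood test, adjusted p = 9.23e-09). The signal transducer gene Smad3 rose by 0.50 ± 0.05 and the coreceptor gene Tgfbr3 by 0.46 ± 0.05. Response genes among those that fell were Pmepa1 (-0.73), Ldlrad4 (-0.52), Skil (-0.22) and Tgif1 (-0.21), and 3 of the list were called fallen without 24 h replicate 2 or 3 or without 6 h replicate 3. Of 31 BMP and GDF genes 8 rose and 3 fell. Beside Gdf10, the ligand gene Gdf2, which encodes BMP9 and is made by stellate cells, had 73.9, 73.2 and 76.5 CPM after 24 h, against 35.6, 34.6 and 35.3 CPM after 6 h (1.08 ± 0.06, adjusted p = 1.85e-09). Bmp2 had 137, 148 and 141 CPM after 24 h, against 76.6, 82.6 and 74.5 CPM after 6 h (0.86 ± 0.05). Bmp6, which in the liver is made mainly by endothelial cells, had 41.0, 39.1 and 42.5 CPM after 24 h, against 73.1, 68.6 and 69.2 CPM after 6 h (-0.78 ± 0.07). The other fallen members were Bmp10 (-0.29) and Gdf15 (-0.27). Gdf10 and Gdf2 are neighbours on chromosome 14, Gdf2 lying at 33941039 to 33947198. Both are on the plus strand.

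Immediate early genes, which growth factors and stress switch on within minutes, were mostly lower. The list held transcription factor genes of the AP-1, EGR and KLF families and other immediate early genes. Of 24 tested 13 fell and 2 rose, with a median of -0.19. Egr1 had 56.0, 55.5 and 56.3 CPM after 24 h, against 99.9, 104 and 109 CPM after 6 h (-0.90 ± 0.05, edgeR quasi-likelihood test, adjusted p = 7.37e-09). Klf4 had 63.3, 58.2 and 56.4 CPM after 24 h, against 109, 103 and 110 CPM after 6 h (-0.86 ± 0.06). The groups are narrow and apart in both. Klf6 fell by 0.44 ± 0.04. The members that rose were Ier3 (0.47 ± 0.05) and Klf10 (0.18), and the count was 1 without 24 h replicate 1 or 2 or 6 h replicate 1 or 2. Of 19 DUSP and Sprouty genes, which damp ERK signalling, 4 rose, namely Dusp2 (1.03), Spred1 (0.44 ± 0.09), Spred3 (0.37 ± 0.09) and Spry2 (0.24 ± 0.07), and Dusp10 fell (-0.34 ± 0.07). Without 24 h replicate 3 or 6 h replicate 2 or 3, 2 were called risen.

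Among inflammatory genes more rose than fell. Of 19 chemokine genes 7 rose and 1, Cxcl13 (-1.15), fell, with a median of 0.34. Ccl2, which attracts monocytes (ENSMUSG00000035385, chromosome 11, 82035571 to 82037453), had 232, 242 and 194 CPM after 24 h, against 128, 111 and 99.9 CPM after 6 h, a log2 fold change of 0.99 ± 0.09 (edgeR quasi-likelihood test, adjusted p = 7.32e-07). Its neighbour Ccl7 rose by 0.84 ± 0.08. Cxcl1, which attracts neutrophils, had 394, 354 and 288 CPM after 24 h, against 169, 198 and 142 CPM after 6 h (1.03 ± 0.12). Without 24 h replicate 3 the count of fallen chemokine genes was 2. Of 23 cytokine and NF-kB feedback genes 12 rose and 3 fell, with a median of 0.27. The alarmin gene Il33 had 30.3, 29.1 and 21.0 CPM after 24 h, against 10.5, 12.0 and 10.4 CPM after 6 h (1.28 ± 0.14), and Il1rl1, which encodes its receptor, rose by 0.91 ± 0.09. Icam1, an adhesion receptor gene, and Nfkbia, the NF-kB inhibitor gene, rose by 0.58 ± 0.05 and 0.63 ± 0.06. The fallen members were Ptgs2, the inducible cyclooxygenase (-0.74 ± 0.08), Lcn2 (-0.44) and Saa3 (-1.57), the last at 0.58 CPM after 24 h and 1.79 CPM after 6 h. Ccl2 averaged 244 ± 19.2 CPM in DMSO, 113 ± 13.9 CPM after 6 h, 227 ± 17.2 CPM after 12 h and 223 ± 25.1 CPM after 24 h, so the 6 h group was the low one. The summed level of macrophage markers was also higher after 24 h, though only 3 of 14 rose and 1 fell, as given below. The part of macrophages in these rises was not tested.

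Cytokines that signal through gp130 act on many liver cells. Of 14 genes of interleukin 11 and gp130 signalling 6 rose and 1, Il6ra (-0.28), fell, with a median of 0.35. The call of Il6ra was lost without any library except 6 h replicate 3. Il6st, which encodes gp130 itself, had 780, 760 and 735 CPM after 24 h, against 561, 572 and 551 CPM after 6 h (0.43 ± 0.04, edgeR quasi-likelihood test, adjusted p = 2.99e-07). The receptor genes Osmr and Lifr each rose by 0.63 ± 0.06, and Socs3, the feedback inhibitor, by 0.74 ± 0.07. The ligand gene Il11 did not pass. It (ENSMUSG00000004371, chromosome 7, 4772373 to 4782859) had 39.4, 35.5 and 30.9 CPM after 24 h, against 35.0, 30.4 and 34.3 CPM after 6 h, with overlapping groups and a log2 fold change of 0.09 ± 0.10 (adjusted p = 0.616). It averaged 7.19 ± 1.01 CPM in DMSO, 33.2 ± 2.48 CPM after 6 h, 37.2 ± 1.41 CPM after 12 h and 35.3 ± 4.29 CPM after 24 h. Of 27 interferon response genes 3 rose, Ifit1 (1.14 ± 0.31), Ddx58 (0.44 ± 0.12) and Irf1 (0.34 ± 0.07), and the count was 1 without 6 h replicate 3, 7 where the 6 libraries were fitted alone and 12 without the low-count filter. The share called was 11.1%, against 15.3% of all genes. In 10 of the 27 the 24 h libraries all lay above the 6 h libraries, and in 1 all lay below. Over all genes tested, 29.8% had groups that did not overlap in either direction. The list's median was 0.36.

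Genes that mark stellate cells did not move as a block. Of 25 stellate identity genes 6 rose and 4 fell, and their summed level was 4511 ± 74.2 CPM after 24 h and 4683 ± 90.5 CPM after 6 h. The sum includes Nes, which averaged 460 ± 27.8 CPM after 24 h and 880 ± 32.1 CPM after 6 h. That drop is larger than the difference between the sums, so the lower 24 h sum does not describe the other members. Lrat, the enzyme that stores retinol as ester (ENSMUSG00000028003, chromosome 3, 82892579 to 82903973), had 8.93, 9.31 and 9.001 CPM after 24 h, against 4.64, 4.42 and 4.67 CPM after 6 h, a log2 fold change of 0.99 ± 0.21 (edgeR quasi-likelihood test, adjusted p = 0.00355). Hgf, the hepatocyte growth factor gene, averaged 204 ± 18.3 CPM after 24 h and 129 ± 9.58 CPM after 6 h and rose by 0.65 ± 0.06, and the globin gene Cygb rose by 0.50 ± 0.08. Nes, the intermediate filament nestin, had 491, 440 and 448 CPM after 24 h, against 895, 844 and 903 CPM after 6 h (-0.94 ± 0.05, adjusted p = 1.77e-09). Des, desmin, had 131, 129 and 138 CPM after 24 h, against 178, 168 and 165 CPM after 6 h (-0.36 ± 0.06). The PDGF receptors differed in direction: Pdgfrb fell by 0.38 ± 0.06 and Pdgfra rose by 0.21 ± 0.04. Nt5e (-0.40), which codes for an enzyme that makes adenosine, was the remaining fallen member. The list holds Nes, Des and Pdgfrb, which are also known from activated cells.

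Of 19 genes of retinoid storage and metabolism 7 rose and 4 fell, with a median of 0.07. Rdh10, which oxidises retinol, averaged 47.7 ± 2.82 CPM after 24 h and 27.9 ± 0.39 CPM after 6 h and rose by 0.78 ± 0.09, beside Lrat and Cyp26b1. The fallen members were the retinyl ester lipase gene Pnpla2 (-0.49 ± 0.05), the retinal dehydrogenase gene Aldh1a1 (-0.46 ± 0.05), the plasma carrier gene Rbp4 (-0.56) and the receptor gene Rara (-0.29). Rbp4 is also abundant in hepatocytes. Of 21 lipid droplet and PPAR-gamma genes 1 rose, the fatty acid binding protein gene Fabp5 (0.43 ± 0.10), and 1 fell, the lipase gene Mgll (-0.70 ± 0.10), a share of 9.52% against 15.3% of all genes. Without 24 h replicate 2 the fallen count was 2.

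Of the genes that supply, sense and remove cyclic GMP, some changed, among them Gucy1a1, Rgs4, Pde1a and Pde2a, and others, among them Gucy1b1, Prkg1 and Pde5a, did not pass. The target of riociguat is a dimer of the products of Gucy1a1 and Gucy1b1. Gucy1a1 (ENSMUSG00000033910, chromosome 3, 82092427 to 82145789) had 93.8, 87.6 and 85.7 CPM after 24 h, against 65.8, 65.7 and 70.7 CPM after 6 h, a log2 fold change of 0.40 ± 0.08 (edgeR quasi-likelihood test, adjusted p = 0.00236). Gucy1b1 (chromosome 3, 82032006 to 82074689) had 75.5, 67.0 and 71.0 CPM after 24 h, against 77.7, 72.3 and 68.7 CPM after 6 h (-0.03 ± 0.06, adjusted p = 0.814). The groups overlap for the beta subunit and do not for the alpha subunit. Of 10 guanylate cyclase and natriuretic peptide receptor genes 3 fell beside the rise of Gucy1a1, the receptor genes Npr2 (-0.28 ± 0.08), Npr1 (-0.24 ± 0.07) and Npr3 (-0.24 ± 0.08). These calls are weak: all 3 were lost without 24 h replicate 1 and 1 remained without 24 h replicate 2 or any single 6 h library, where adjusted p reached 0.227.

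Of 12 cGMP-dependent kinase and substrate genes 1 rose and 1 fell. Prkg1 had 23.2, 19.9 and 21.0 CPM after 24 h, against 21.5, 25.3 and 21.7 CPM after 6 h, with overlapping groups (-0.10 ± 0.09, edgeR quasi-likelihood test, adjusted p = 0.571). Rgs4, which shortens G protein signals, had 3.90, 3.38 and 3.96 CPM after 24 h, against 1.02, 1.58 and 1.001 CPM after 6 h (1.63 ± 0.31). Csrp1, a LIM domain protein gene of contractile cells, had 182, 166 and 184 CPM after 24 h, against 355, 312 and 342 CPM after 6 h (-0.92 ± 0.06). Without 6 h replicate 2 the fallen count was 2. Of 12 genes that hydrolyse or export cyclic GMP 1 rose and 2 fell. Pde1a had 81.7, 73.2 and 71.0 CPM after 24 h, against 35.3, 40.8 and 40.2 CPM after 6 h (0.95 ± 0.07, adjusted p = 4.88e-08). Pde2a, which cyclic GMP itself stimulates, had 86.0, 108 and 114 CPM after 24 h, against 184, 160 and 168 CPM after 6 h (-0.73 ± 0.09). The export pump gene Abcc4 fell by 0.41 ± 0.04. Pde5a, the target of sildenafil, had 13.6, 13.8 and 11.2 CPM after 24 h, against 13.8, 13.02 and 15.8 CPM after 6 h and did not pass (adjusted p = 0.502).

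Of 8 phosphodiesterases specific for cyclic AMP, Pde4b rose (0.23 ± 0.05). Of 18 genes that CREB or cyclic nucleotides induce 1 rose and 2 fell. Gem, a small GTPase gene, had 80.3, 73.8 and 75.4 CPM after 24 h, against 50.8, 54.1 and 49.6 CPM after 6 h (0.57 ± 0.07). The nuclear receptor gene Nr4a1 fell by 0.53 ± 0.12 and the coactivator gene Cited2 by 0.24 ± 0.06. The fallen count was 1 without 24 h replicate 2 or 3 or 6 h replicate 1, and the risen count 2 without 24 h replicate 2. The share changed was 40% in the cyclase and natriuretic peptide receptor list and 16.7% in the kinase and substrate list and the CREB list. It was 12.5% for the cyclic AMP phosphodiesterases and 25% for the genes that hydrolyse or export cyclic GMP, Abcc4 included. These shares stand beside 15.3% of all genes tested.

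**Figure D4:**
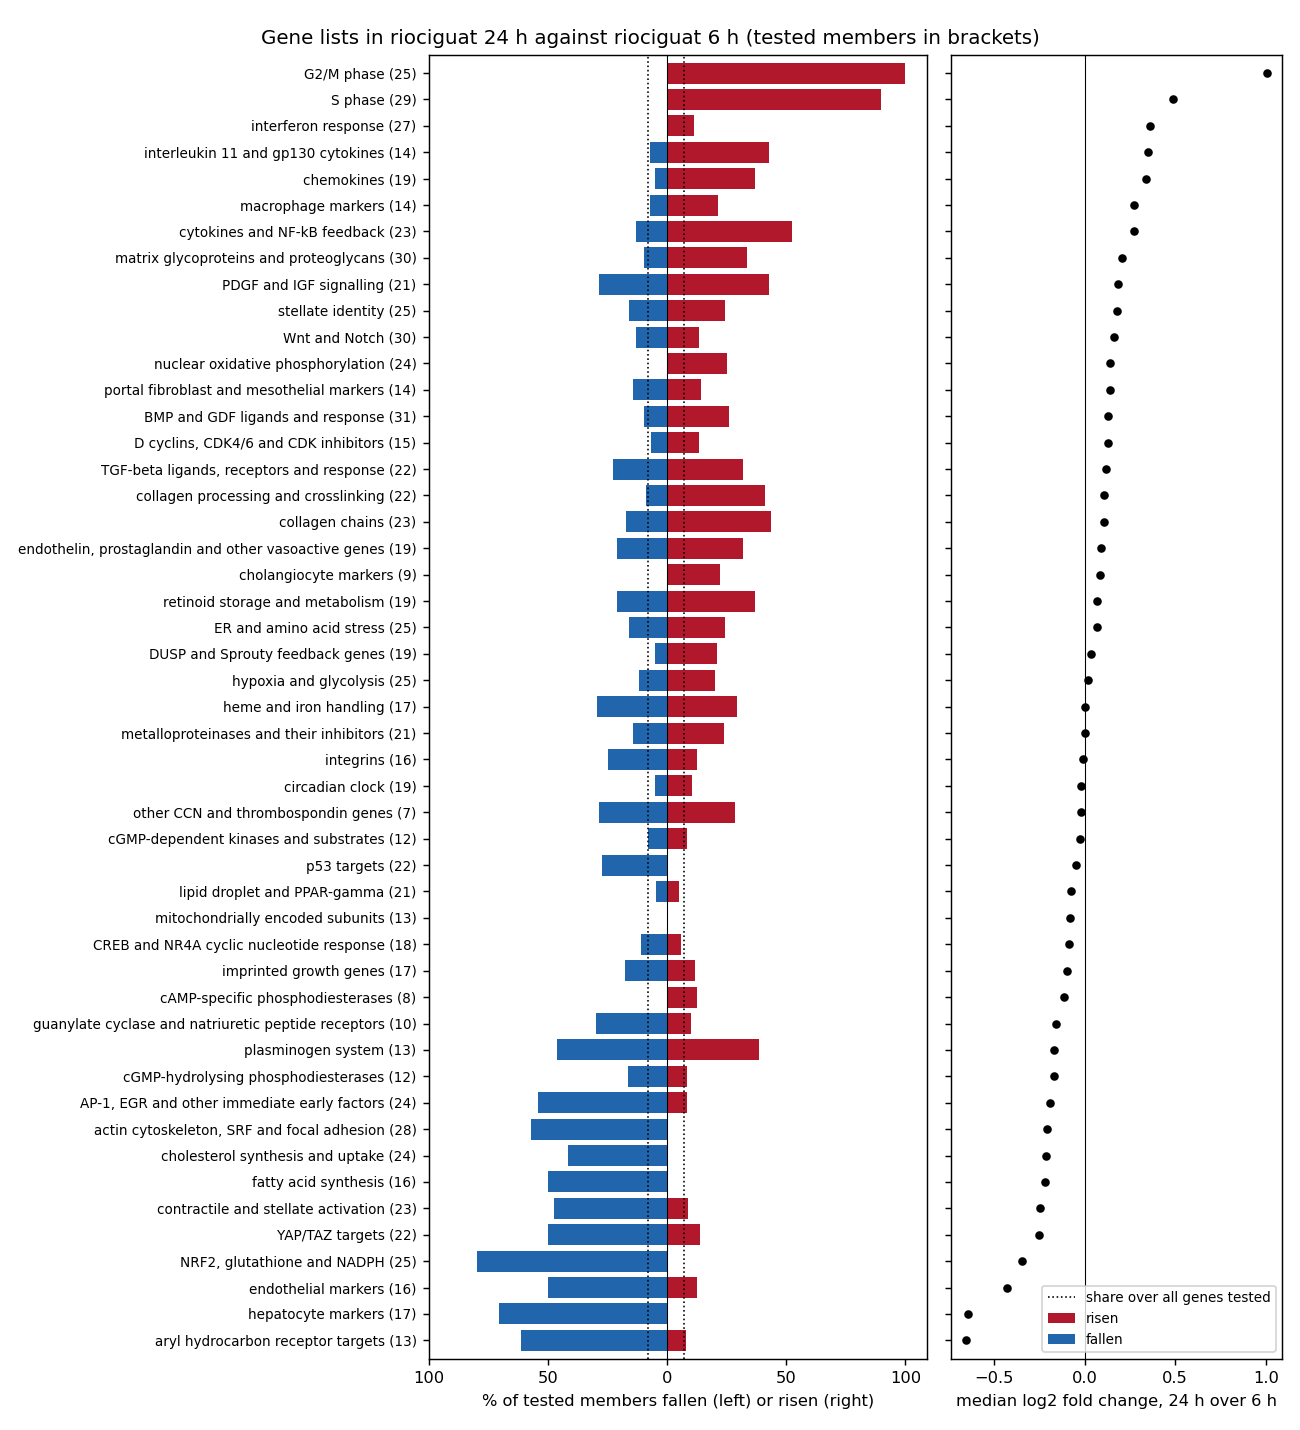
Each row is 1 of 49 gene lists with the number of tested members in brackets, ordered by the median log2 fold change of riociguat 24 h over riociguat 6 h, which the right panel plots. In the left panel red bars give the percentage of members that rose and blue bars, drawn to the left, the percentage that fell, and dotted lines mark 7.16% and 8.13% for all genes tested. The G2/M and S phase lists are at the top, and the aryl hydrocarbon receptor, hepatocyte, endothelial and NRF2 lists at the bottom.

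Growth factor and vasoactive genes changed in both directions. Of 21 PDGF and IGF signalling genes 9 rose and 6 fell, and Vegfc, a lymphatic growth factor, rose by 0.60 ± 0.08. Of 30 Wnt and Notch genes 4 rose and 4 fell. The Wnt agonist gene Rspo3, which stellate cells make, averaged 402 ± 21.4 CPM after 24 h and 293 ± 5.39 CPM after 6 h (0.46 ± 0.05), Wnt4 rose by 0.70 ± 0.10, and Dll4 (0.49) and Notch2 (0.16) rose too. Falls were found in Rspo1 (-1.003), Notch4 (-0.66 ± 0.08), Jag1 (-0.38 ± 0.06) and Hes1 (-0.28). Without 6 h replicate 2 the risen count was 2. Of 16 integrin genes 2 rose, Itga2 (0.78 ± 0.08) and Itga1 (0.27 ± 0.05), whose products bind collagen, and 4 fell, Itga7 (-0.51), Itgb3 (-0.36 ± 0.06), Itgb5 (-0.24 ± 0.05) and Itga5 (-0.19). The fallen count was 2 without 24 h replicate 3 or 6 h replicate 1 or 3. Of 19 vasoactive genes 6 rose and 4 fell. The endothelin receptor gene Ednra rose by 0.51 ± 0.08 and the adenosine receptor gene Adora2b by 0.90 ± 0.13. Among the falls were Ptgs2, Ptgs1 (-0.29 ± 0.04), the endothelin gene Edn1 (-0.40) and the angiotensinogen gene Agt (-0.97), which hepatocytes express strongly.

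Among 17 imprinted growth genes 2 rose and 3 fell. Peg3, a zinc finger gene (ENSMUSG00000002265, chromosome 7, 6703892 to 6730431), had 23.8, 19.5 and 19.8 CPM after 24 h, against 47.7, 56.3 and 55.4 CPM after 6 h, a log2 fold change of -1.34 ± 0.09 (edgeR quasi-likelihood test, adjusted p = 1.32e-08). It averaged 24.1 ± 0.72 CPM in DMSO, 53.1 ± 4.69 CPM after 6 h, 29.6 ± 1.23 CPM after 12 h and 21.1 ± 2.41 CPM after 24 h. The 6 h group is the high one. Mest and Grb10 fell by 0.29 ± 0.05 and 0.24 ± 0.05, and the noncoding RNA gene H19 (0.83 ± 0.13) and Igf2 (0.64) rose. The risen count was 1 without 24 h replicate 1 or 3 or 6 h replicate 1 or 3. Of 19 circadian clock genes 2 rose, Bhlhe40 (0.34 ± 0.07) and Cry1 (0.33 ± 0.10), and Nr1d1 fell (-0.28 ± 0.06). The share called was 15.8%, close to the 15.3% of all genes, so nothing is read from this list as a whole. The risen count was 1 without 24 h replicate 2 or 3 or 6 h replicate 2 or 3. All groups were collected at the same culture age.

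Lipid synthesis genes were lower in part. Of 24 cholesterol synthesis and uptake genes 10 fell, with a median of -0.21. The cholesterol exporter gene Abca1 averaged 70.5 ± 1.51 CPM after 24 h and 106 ± 1.39 CPM after 6 h (-0.59 ± 0.05, edgeR quasi-likelihood test, adjusted p = 8.31e-07). Insig1, which restrains cholesterol synthesis, fell by 0.40 ± 0.07. The count was 6 without 24 h replicate 2 or 6 h replicate 1, 5 without 6 h replicate 3 and 4 without 24 h replicate 3. Of 16 fatty acid synthesis genes 8 fell, with a median of -0.22. The desaturase gene Scd2 fell by 0.37 ± 0.04 and Fasn, the synthase, by 0.28 ± 0.05. The count was 5 without 24 h replicate 2 or 6 h replicate 3. Several genes of both lists are expressed strongly in hepatocytes, whose markers fell, and the part of those cells was not tested.

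Energy and stress genes showed small differences. Of 25 hypoxia and glycolysis genes 5 rose and 3 fell, with Ldha, lactate dehydrogenase, up by 0.41 ± 0.04 and the glucose transporter gene Slc2a1 down by 0.29 ± 0.05. Egln3, an oxygen sensor gene, fell by 0.46 ± 0.07, and Pfkp by 0.24. The risen count was 3 without 24 h replicate 1 or any single 6 h library. Of 24 nuclear genes of oxidative phosphorylation 6 rose, by 0.14 ± 0.04 in Sdha to 0.42 ± 0.11 in Ndufa2. The count was 3 without 24 h replicate 1, 2 without 24 h replicate 3, and no gene of the list was called without 6 h replicate 3. None of the 13 mitochondrially encoded subunit genes was called by edgeR or DESeq2, 0 had an unadjusted p under 0.05, and their log2 fold changes ran from -0.20 to 0.69. Without the low-count filter edgeR called 2 of them risen and 6 fallen. Of 25 ER and amino acid stress genes 6 rose and 4 fell. The fallen members were Slc7a11, Ppp1r15a (-0.26 ± 0.05), the amino acid transporter subunit Slc3a2 (-0.24 ± 0.05) and Sesn2 (-0.17), and the splicing-activated factor gene Xbp1 rose by 0.18 ± 0.04. Without 6 h replicate 3, 3 were called risen.

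Markers of other liver cells differed between the exposures. In bulk RNA fewer cells of a type and less RNA per cell cannot be told apart. Of 17 hepatocyte markers 12 fell, with a median of -0.64, and their summed level lay between 837 and 1167 CPM after 24 h, against 1458 to 1677 CPM after 6 h. Alb had 471, 539 and 389 CPM after 24 h, against 687, 786 and 700 CPM after 6 h (-0.64 ± 0.09, edgeR quasi-likelihood test, adjusted p = 0.000117). The sum averaged 1739 ± 44.9 CPM in DMSO, 1545 ± 117 CPM after 6 h, 1765 ± 213 CPM after 12 h and 1005 ± 165 CPM after 24 h, so the 24 h group was the low one. Of 16 endothelial markers 8 fell, with a median of -0.43, and their sum lay between 1179 and 1253 CPM after 24 h, against 1671 to 1765 CPM after 6 h. Cdh5, the endothelial cadherin, had 224, 214 and 221 CPM after 24 h, against 433, 389 and 405 CPM after 6 h (-0.90 ± 0.05, adjusted p = 1.27e-09), and Stab1, Tek and Kdr fell by 0.53 ± 0.05, 0.53 ± 0.07 and 0.50 ± 0.05. The rise of Gpr182 (0.61) and Clec4g (0.34), both of sinusoidal endothelium, went the other way, with 1 of them called without 24 h replicate 2 or 3 or 6 h replicate 2 or 3. Stab2, a further sinusoidal gene, lay between 9.74 and 13.9 CPM after 24 h and between 8.96 and 10.9 CPM after 6 h, and Lyve1 between 2.49 and 3.21 CPM after 24 h and between 3.11 and 5.35 CPM after 6 h.

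Of 14 macrophage markers tested 3 rose, Lyz2 (0.71 ± 0.09), C1qa (0.76 ± 0.23) and Vsig4 (1.18 ± 0.35), and 1 fell, Csf1r (-0.29 ± 0.08). Their sum lay between 184 and 208 CPM after 24 h, against 154 to 161 CPM after 6 h. The defining markers Adgre1 and Clec4f reached at most 3.90 and 0.30 CPM after 24 h and 2.37 and 0.44 CPM after 6 h. The risen count was 1 without 24 h replicate 1 or 3 or 6 h replicate 1 or 3, and Csf1r was lost without 24 h replicate 1 or 3 or 6 h replicate 3. Of 9 cholangiocyte markers 2 rose, Spp1 among them, and the count was 1 without 24 h replicate 1 or 2 or 6 h replicate 1 or 3. Their sum lay between 1510 and 1672 CPM after 24 h, against 1086 to 1210 CPM after 6 h, and without Spp1 between 789 and 945 CPM after 24 h, against 824 to 912 CPM after 6 h, where the groups overlap. Krt19 and Epcam overlapped too. Of 14 portal fibroblast and mesothelial markers 2 rose, the fibulin gene Fbln2 (0.58 ± 0.07) and Gpm6a (0.70 ± 0.13), and 2 fell, Cd34 (-0.64 ± 0.05) and Entpd2 (-0.65 ± 0.21), the last lost without any single library. Cd34 is also an endothelial gene. Their sum lay between 542 and 584 CPM after 24 h, against 458 to 493 CPM after 6 h. Of 6 lymphocyte markers tested Cd4 was called, at 0.23, 0.30 and 0.45 CPM after 24 h and with no count in any 6 h library. It passed the low-count filter through the other groups, and no lymphocyte marker was called with the 6 libraries fitted alone, by DESeq2 or with libraries thinned to the smallest total, where Cd4 itself had no adjusted p, so nothing is read from this call. The lymphocyte sum was 4.20 to 6.12 CPM after 24 h, against 3.15 to 4.19 CPM after 6 h, with Cd3e and Nkg7 at or under 0.24 CPM.

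**Figure D5:**
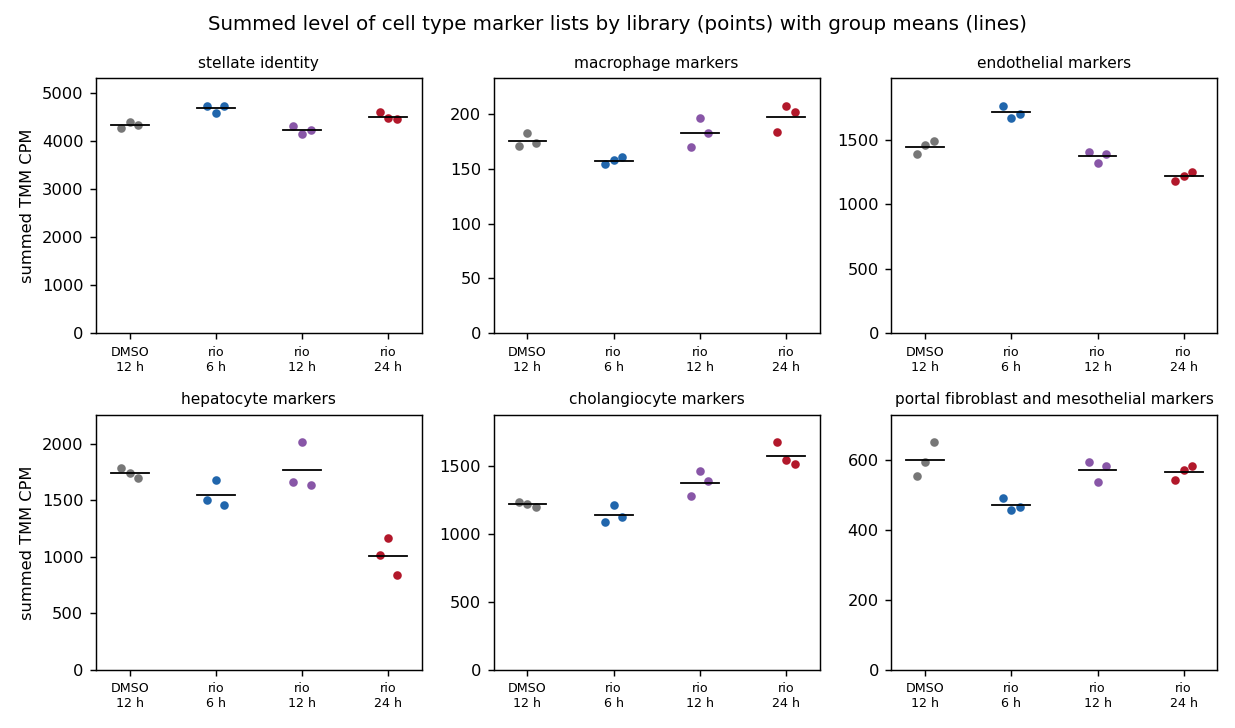
Summed TMM CPM of the stellate identity list and of 5 lists of markers of other cells in every library (points) with group means (lines), in DMSO 12 h and riociguat 6 h, 12 h and 24 h. Hepatocyte markers are lowest at 24 h and endothelial markers highest at 6 h and lowest at 24 h, while the stellate sum averages 4511 CPM at 24 h and 4683 CPM at 6 h. The stellate sum includes Nes, which averages 460 CPM at 24 h and 880 CPM at 6 h.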

How the data were processed

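Whole-cell RNA of 12 libraries, 3 per group, was sequenced on an Illumina instrument, per the labels. The submitters' processing notes name FastQC, fastp, Salmon, DESeq2 and GRCm38 without giving their roles or versions. The authors deposited estimated counts per gene as whole numbers, and whether strand was used is not stated, so overlapping and antisense genes may share reads. Of 53452 genes in the table, 16036 passed edgeR's filterByExpr. With edgeR 4.0.16 (R 4.3.3), TMM factors and quasi-likelihood fits over all 12 libraries gave the contrast of riociguat 24 h over riociguat 6 h, with Benjamini-Hochberg adjustment over all genes tested and a threshold of 0.05. The common biological coefficient of variation was 0.0798. Standard errors were derived from the log2 fold change and the F statistic. The test was also run on counts simulated with the spread that the same model had estimated. Such counts follow the model, so this run cannot show how often calls on the real libraries are wrong. Replicates differed by more than sampling noise, with a chi-square per degree of freedom of 4.54 to 7.93 within the groups compared.

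Named genes were the 12 largest rises and 12 largest falls among called genes with groups that did not overlap and a group mean reaching 5 CPM, a fixed set of stellate cell and cyclic GMP genes, and the 4 members of each of 50 gene lists with the smallest p. Where a count of 5 or fewer is given, its members are mostly named too. Other genes were picked to describe a list. The lists and the comparison were chosen with earlier results of these data known. Alternatives were RLE size factors, no filter, the 6 libraries alone, DESeq2 1.42.0, a replicate block, counts thinned at random to the smallest library total, and leaving out libraries. Promoter windows are RefSeq sequences of GRCm38.p6, matched by symbol, and 165 of 218 named genes had one. Results of a few genes are not reported here.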

Additional observations from a re-analysis of the deposited data

How the results depend on the processing

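The counts of changed, risen and fallen genes stayed within 1.5 times those reported under all 13 alternatives. Leaving out each of the 6 libraries in turn gave 1772 to 2117 changed genes, 789 to 1014 risen, 960 to 1127 fallen, and 182 to 254 changed by at least 1. RLE size factors gave 2471 changed genes, no filter 2561, the 6 libraries alone 2156, DESeq2 2548, thinning every library at random to the smallest total 2216, and leaving out DMSO replicate 1 gave 2555. The alternatives shared 68.9% to 98.5% of the reported calls, and 0 of these had the opposite sign. Same-numbered libraries of the 24 h and 6 h groups did not deviate together, with correlations across genes of -0.03, -0.00 and -0.00. Taken over all genes, with weakly counted ones included, these values cannot exclude a shared isolation or batch. With a replicate block 2208 genes changed, 1027 risen and 1181 fallen. Of the 193 named genes that were called, 171 kept call and direction under every alternative, 21 lost the call under at least 1, and Cd4 had no value under 3. Among genes not called, the Gucy1b1 log2 fold change ranged from -0.071 to 0.023 with single libraries left out, with 0.020 without riociguat 24 h replicate 2 and 0.023 without riociguat 6 h replicate 1. The mt-Atp8 log2 fold change ranged from -0.35 to 1.11, the lowest without riociguat 24 h replicate 1. The causes were not tested. The smallest library held 12953096 counts, which limits genes near the filter most. Exposure length and culture stage cannot be told apart in this design.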
